A study of Rattus norvegicus with 9 samples.

Results

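The genes of the ATF4 amino acid response were examined in tongue tissue of rats given the carcinogen 4-nitroquinoline oxide (4NQO), with or without the interleukin-1 receptor antagonist (IL-1Ra). The 7 genes were Atf4, Ddit3, Trib3, Sesn2, Asns, Psat1 and Phgdh, taken as every probe set of the array that carried only that gene symbol. They were 7 genes of 14217 measured, with 10 probe sets of 31042. All 7 were measured and none was removed by a filter. Trib3 had 3 probe sets, Sesn2 had 2 and each of the other genes had 1.

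ATF4 is a transcription factor whose protein is made in larger amounts when the translation factor eIF2 is phosphorylated, as happens when cells run short of an amino acid or when unfolded protein accumulates in the endoplasmic reticulum (ER). It then switches on genes for amino acid synthesis and uptake and for the charging of tRNA. Because much of this control lies at translation, the level of Atf4 mRNA need not follow the level of the protein, which was not measured here. In many tumours the synthesis of serine and asparagine is under its control.

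All animals were male Sprague-Dawley rats, and total RNA of the tongue was hybridised to 9 arrays, 3 in each of 3 groups. The normal group drank distilled water, and the methods describe no injection for it. The 4NQO group drank water with 0.002% 4NQO, a compound that damages DNA and brings about dysplasia and then squamous cell carcinoma of the oral lining. The IL-1Ra intervention group was given the same carcinogen and IL-1Ra, which blocks signalling of interleukin-1 by filling its receptor. The labels state that carcinogen-treated rats with visible lesions were taken from week 14 to week 22. The methods instead describe a fixed 4NQO course, then a weekly injection of IL-1Ra or saline under the tongue mucosa until week 22. They name anaesthesia with chloral hydrate before the injections. By the methods, carcinogen, injection and anaesthesia cannot be told apart in the comparisons with normal tongue. The study describes the 9 samples as rat tongues chosen at random, and the sources used here give neither the lesion stage of each tongue nor the age of the animals. The design text of the series names epithelia and fibroblasts, but the samples are labelled as tongue. In that tissue, 10 of 12 skeletal muscle, 7 of 8 basal keratinocyte and 12 of 14 differentiated keratinocyte markers lay above the upper quartile on every array. So did 7 of 8 fibroblast and 5 of 7 endothelial markers. In whole tissue, fewer cells of a type and less RNA per cell cannot be told apart.

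The promoters of the 3 genes that rose in the 4NQO group, and that of Trib3, are shown because ATF4 acts on its targets through the C/EBP-ATF response element. The windows are the 250 bases before the start of each gene in RefSeq on build GRCr8, written 5′ to 3′ on the strand of the gene, and capitals mark a match to the core of this element.
Asns (chr4:36769416-36769665, - strand): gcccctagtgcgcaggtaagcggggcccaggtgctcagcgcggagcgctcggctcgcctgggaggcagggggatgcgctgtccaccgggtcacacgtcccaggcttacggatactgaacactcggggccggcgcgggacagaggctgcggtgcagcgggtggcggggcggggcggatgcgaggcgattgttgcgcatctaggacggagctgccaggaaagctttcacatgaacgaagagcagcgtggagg
Psat1 (chr1:222645409-222645658, - strand): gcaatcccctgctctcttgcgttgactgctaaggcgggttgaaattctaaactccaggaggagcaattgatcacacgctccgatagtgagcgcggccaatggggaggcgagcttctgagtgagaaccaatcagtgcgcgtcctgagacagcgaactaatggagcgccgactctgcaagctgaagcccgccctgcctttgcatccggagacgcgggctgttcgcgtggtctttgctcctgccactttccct
Phgdh (chr2:188624790-188625039, - strand): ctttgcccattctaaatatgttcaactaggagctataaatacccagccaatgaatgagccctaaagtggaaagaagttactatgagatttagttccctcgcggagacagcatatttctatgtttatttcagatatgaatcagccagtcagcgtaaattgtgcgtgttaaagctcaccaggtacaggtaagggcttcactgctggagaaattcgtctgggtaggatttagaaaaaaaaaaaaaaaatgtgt
Trib3 (chr3:161275534-161275783, - strand): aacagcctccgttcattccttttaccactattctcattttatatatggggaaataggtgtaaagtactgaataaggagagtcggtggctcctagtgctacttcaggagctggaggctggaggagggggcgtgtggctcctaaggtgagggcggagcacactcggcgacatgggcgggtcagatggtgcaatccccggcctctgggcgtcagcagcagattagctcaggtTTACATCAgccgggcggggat

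The element was searched as TGATGNAA and the cAMP response element as TGACGTCA, on both strands. Among the 7 genes, Trib3 alone held a match, TTACATCA, on the opposite strand at bases -21 to -14 from the start. The first motif was present in 3.4% of 33469 rat promoters of the same length, and the second in 1.59%. The windows of the other 6 genes held neither string of letters, which says nothing of sites elsewhere or of close variants.

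The 7 genes fell apart by role. The enzymes of asparagine and serine synthesis were higher in the 4NQO group than in the normal group, by 3.05-fold for Asns, 2.49-fold for Psat1 and 1.91-fold for Phgdh. The stress regulators Atf4, Ddit3 and Trib3 differed by at most 1.06-fold in that comparison on their brightest probe sets, and Sesn2 lay between them at 1.30-fold. No gene of the 7 was called between the IL-1Ra and 4NQO groups. Values are log2 intensities, tests are those of limma over all probe sets with p-values adjusted by Benjamini-Hochberg, and a gene was called at an adjusted p under 0.05. Levels are compared between groups for the same probe set and never between genes.

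**Figure D1:**
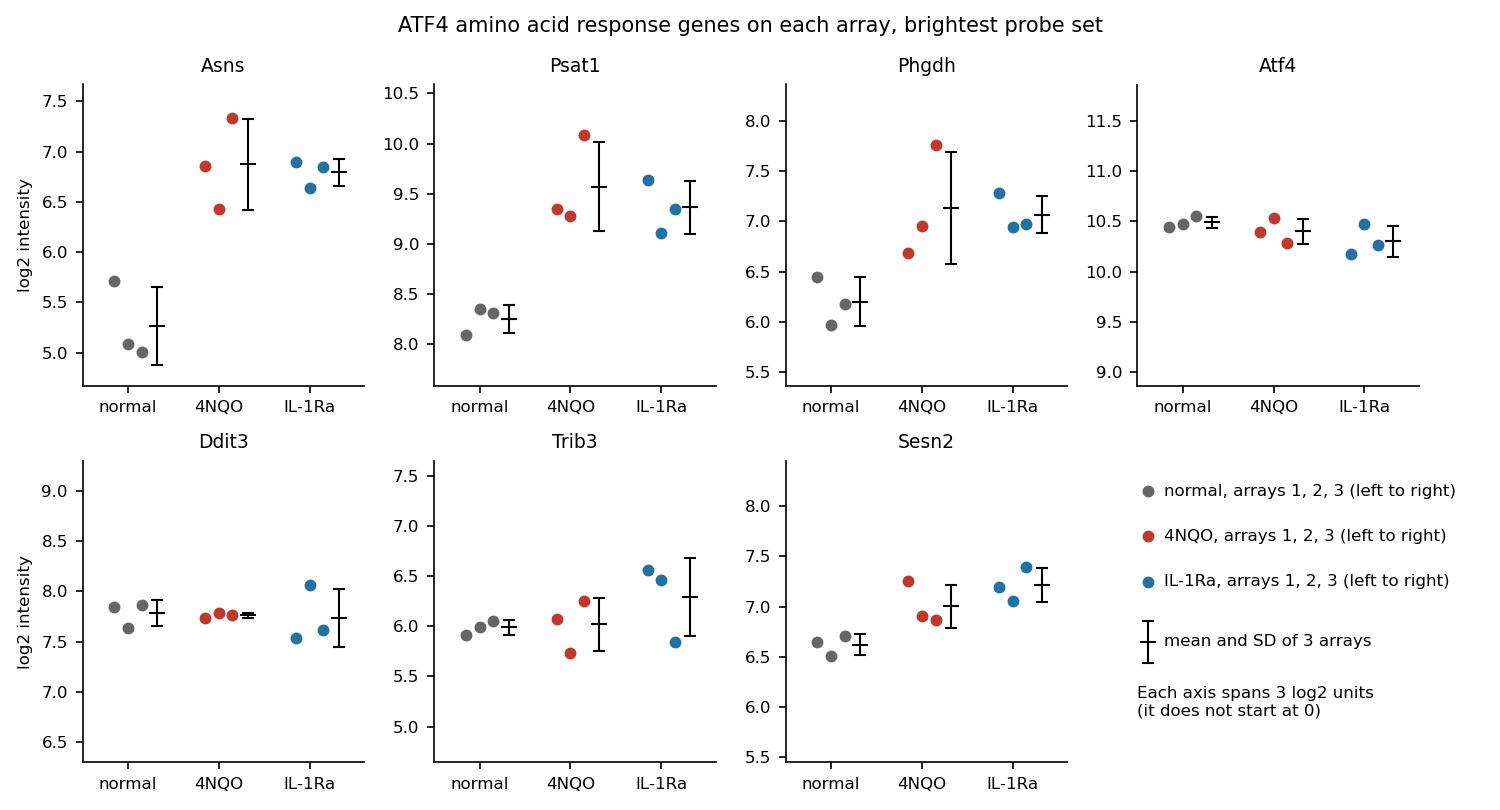
Log2 intensity of the brightest probe set of each of the 7 genes on each of the 9 arrays, by group, with the mean and SD of 3 arrays beside the points. Asns, Psat1 and Phgdh lay higher on every 4NQO and IL-1Ra array than on any normal array, while Atf4 and Ddit3 overlapped between all groups. The share of all probe sets without overlap was not counted.

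Asns encodes asparagine synthetase, which makes asparagine from aspartate and glutamine. In normal tongues it read 5.71, 5.08 and 5.0 log2. In the 4NQO group it read 6.85, 6.43 and 7.33, and in the IL-1Ra intervention group 6.90, 6.64 and 6.84. The normal arrays were thus lower than all 6 arrays of carcinogen-treated rats, with no overlap, and the other 2 groups overlapped. With 3 arrays against 3, an exact two-sided permutation p cannot go below 0.1 even without overlap. The share of all probe sets without overlap was not counted, for this gene or those below. Between 4NQO and normal, 10209 of 31042 probe sets had an unadjusted limma p under 0.05. The rise from normal to 4NQO was 1.61 log2 (SE 0.239, 95% confidence interval 1.08 to 2.14, limma adjusted p = 0.00621), the 20th largest difference upward among 14217 genes. The rise from normal to the IL-1Ra intervention group was 1.53 log2 (SE 0.239, interval 1.00 to 2.06, limma adjusted p = 0.0345), or 2.89-fold. The IL-1Ra intervention group differed from the 4NQO group by -0.08 log2 (interval -0.61 to 0.45, limma adjusted p = 0.892). In the same ranking of differences from normal to 4NQO, Psat1 was at 49, Phgdh at 213, Sesn2 at 2790, Trib3 at 7859, Ddit3 at 8509 and Atf4 at 9537. The genes were chosen with earlier results of these data known, so the ranks are a description and not a test.

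Psat1 and Phgdh encode enzymes of serine synthesis from a glycolytic intermediate. Phgdh, phosphoglycerate dehydrogenase, takes the first step, and Psat1, phosphoserine aminotransferase, the next. Psat1 read 8.09, 8.35 and 8.32 log2 in the normal group, 9.35, 9.28 and 10.08 in the 4NQO group, and 9.64, 9.11 and 9.35 in the IL-1Ra intervention group. Every array of the last 2 groups lay above every normal array. The difference from normal was 1.32 log2 in the 4NQO group (SE 0.214, interval 0.84 to 1.79, limma adjusted p = 0.00776) and 1.11 in the IL-1Ra intervention group (SE 0.214, interval 0.63 to 1.59, limma adjusted p = 0.0440). Between the IL-1Ra and 4NQO groups it was -0.21 log2 (interval -0.68 to 0.27, limma adjusted p = 0.651).

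Phgdh read 6.45, 5.97 and 6.18 log2 in normal tongues, 6.69, 6.95 and 7.76 under 4NQO, and 7.28, 6.94 and 6.98 with IL-1Ra. The normal arrays again stood below all others, and 4NQO array 3 was the highest of the 9. The rise under 4NQO was 0.93 log2 (SE 0.248, interval 0.38 to 1.49, limma adjusted p = 0.0345). It was less firm than the other 2: without 4NQO array 3 it was 0.62 log2 and still called, but the call was lost when normal array 1, 2 or 3 was left out (0.82 to 1.06 log2, limma adjusted p of 0.0574, 0.113 and 0.108) and after other scalings of the arrays (0.74 to 0.77 log2). With IL-1Ra, Phgdh was 0.87 log2 above normal without passing the threshold (interval 0.31 to 1.42, limma adjusted p = 0.0862), and -0.07 log2 from the 4NQO group (interval -0.62 to 0.49, limma adjusted p = 0.913).

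Without 1 array at a time, the differences of Asns and Psat1 between the 4NQO and normal groups ran from 1.38 to 1.83 log2 and from 1.06 to 1.46 log2, and both genes were called each time. Their calls between the IL-1Ra intervention group and the normal group were weaker. The call of Asns was lost without any 1 of the 3 normal or 3 IL-1Ra arrays, and that of Psat1 without any of these or without 4NQO array 1, although the differences stayed at 1.4 to 1.75 log2 and 0.98 to 1.24 log2.

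**Figure D2:**
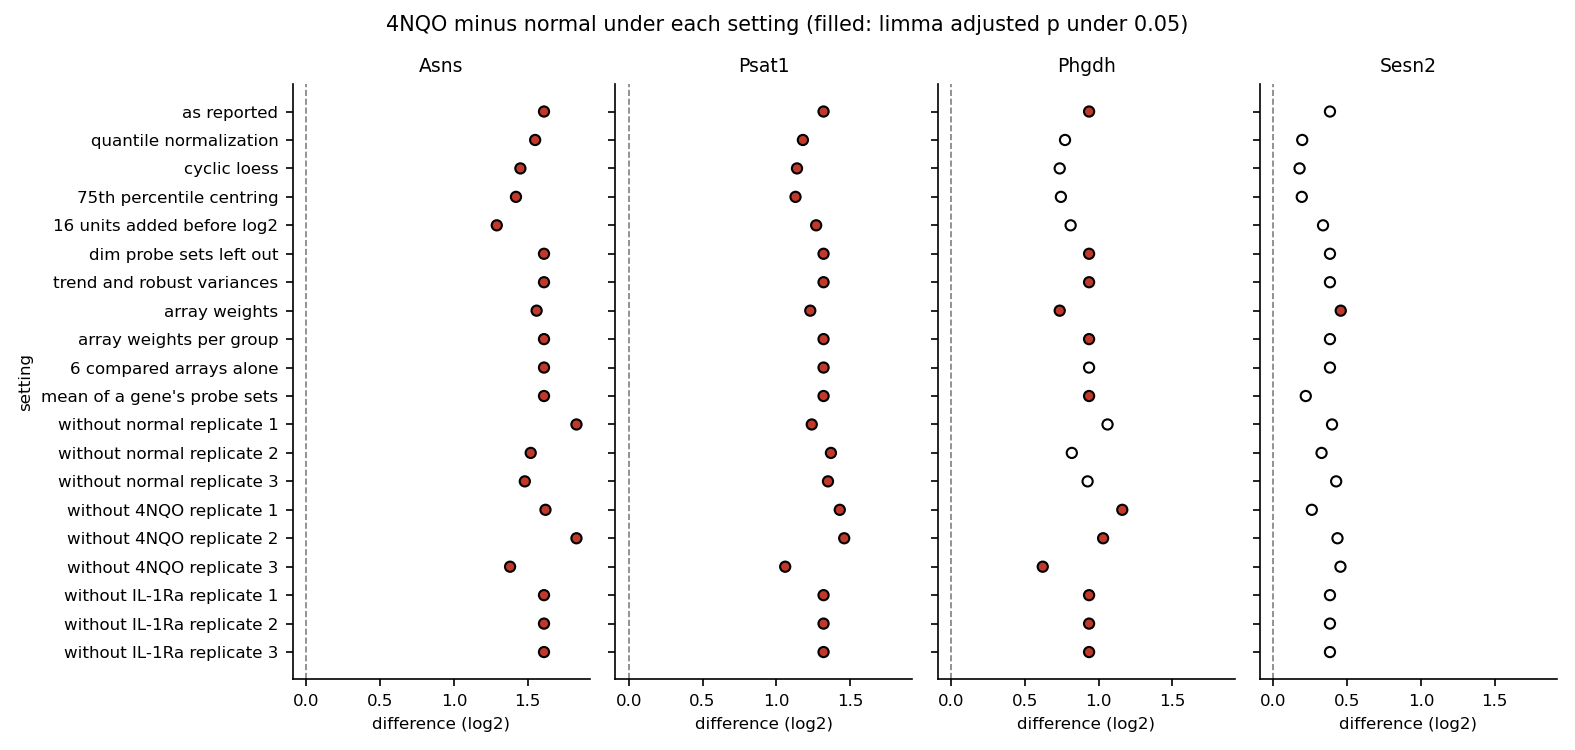
Difference between the 4NQO and normal groups, in log2 units, for Asns, Psat1, Phgdh and Sesn2 under each limma setting of the analysis. Points are filled where the limma adjusted p was under 0.05. Asns and Psat1 were filled under every setting shown. Phgdh lost the call under several, and Sesn2 was called with array weights alone. The equal-variance test of the methods is not shown. By that test after Benjamini-Hochberg adjustment, neither Asns nor Psat1 was called.

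Atf4 itself was bright on every array and changed little. It read 10.45, 10.47 and 10.55 log2 in the normal group, 10.39, 10.53 and 10.29 in the 4NQO group, and 10.17, 10.48 and 10.26 in the IL-1Ra intervention group. The 3 groups overlapped. Its differences were -0.09 log2 for 4NQO against normal (interval -0.34 to 0.17, limma adjusted p = 0.632), -0.10 for IL-1Ra against 4NQO (interval -0.36 to 0.16, limma adjusted p = 0.694) and -0.19 for IL-1Ra against normal (interval -0.44 to 0.07, limma adjusted p = 0.364). These intervals reach down to -0.44 and up to 0.17 log2.

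Ddit3 encodes CHOP, a transcription factor that ATF4 induces in prolonged stress and that can lead to cell death. It read 7.84, 7.63 and 7.87 log2 in normal tongues, 7.74, 7.78 and 7.77 under 4NQO, and 7.53, 8.06 and 7.62 with IL-1Ra. The second IL-1Ra array was the highest of the 9 and the first the lowest, so that this group spanned the other 2. Ddit3 differed by -0.02 log2 between 4NQO and normal (interval -0.34 to 0.30, limma adjusted p = 0.939), by -0.02 between IL-1Ra and 4NQO (interval -0.35 to 0.30, limma adjusted p = 0.949) and by -0.04 between IL-1Ra and normal (interval -0.37 to 0.28, limma adjusted p = 0.884).

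Trib3 encodes a pseudokinase that is induced by ATF4 and CHOP and restrains both. Its brightest probe set, 1370695_s_at, read 5.91, 6.0 and 6.06 log2 in the normal group, 6.08, 5.73 and 6.25 in the 4NQO group, and 6.56, 6.46 and 5.85 in the IL-1Ra intervention group. IL-1Ra arrays 1 and 2 were the highest of the 9, and IL-1Ra array 3 fell among the normal and 4NQO arrays. The difference between IL-1Ra and 4NQO was 0.27 log2 (interval -0.16 to 0.70, limma adjusted p = 0.491), and that between 4NQO and normal was 0.03 (interval -0.40 to 0.46, limma adjusted p = 0.926). The sign of the latter turned after other scalings, to between -0.16 and -0.10 log2.

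The other Trib3 probe sets had the same order of arrays within the IL-1Ra intervention group. Probe set 1386321_s_at read 5.70, 5.73 and 5.88 log2 in the normal group, 5.75, 5.45 and 6.41 under 4NQO, and 6.85, 6.50 and 5.94 with IL-1Ra, so that all IL-1Ra arrays lay above the normal ones. Probe set 1370694_at read 4.34, 4.24 and 4.76 in the normal group, 4.31, 4.16 and 4.84 under 4NQO, and 5.48, 4.94 and 4.46 with IL-1Ra, with overlap. On these probe sets IL-1Ra was 0.56 and 0.52 log2 above 4NQO (limma adjusted p of 0.282 and 0.321) and 0.66 and 0.51 above normal (limma adjusted p of 0.175 and 0.282). None of the 9 Trib3 tests passed the threshold. Probe sets with the suffix s can match more than 1 transcript, so the 2 of Trib3 that carry it may include signal of another gene.

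Sesn2, sestrin 2, is a leucine sensor that restrains the growth kinase complex mTORC1. Its brighter probe set, 1391607_at, read 6.65, 6.51 and 6.71 log2 in normal tongues, 7.25, 6.90 and 6.86 under 4NQO, and 7.19, 7.05 and 7.39 with IL-1Ra. No normal array overlapped either other group, though the share of all probe sets without overlap was not counted. The differences from normal were 0.38 log2 under 4NQO (interval 0.08 to 0.69, limma adjusted p = 0.0864) and 0.59 with IL-1Ra (interval 0.28 to 0.90, limma adjusted p = 0.0599), so neither was called. The latter passed the threshold under several other settings, among them leaving out 4NQO array 2 or 3 (limma adjusted p of 0.0485 and 0.0373). It fell to 0.437 log2 after quantile scaling, 0.458 after cyclic loess and 0.139 with the mean of its probe sets (limma adjusted p of 0.126, 0.121 and 0.444). The difference under 4NQO fell to 0.195, 0.177 and 0.192 log2 after quantile scaling, cyclic loess and centring on the 75th percentile (limma adjusted p of 0.392, 0.442 and 0.317).

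The second Sesn2 probe set, 1396901_at, went the other way. It lay under the lower quartile of all 9 arrays, at 3.26, 3.35 and 3.37 log2 in the normal group, 3.46, 3.38 and 3.30 under 4NQO, and 3.02, 3.07 and 2.95 with IL-1Ra. All IL-1Ra arrays were below all others here, with differences of -0.37 log2 from the 4NQO mean (limma adjusted p = 0.0834) and -0.31 from the normal mean (limma adjusted p = 0.106). The direction of Sesn2 between the IL-1Ra and 4NQO groups therefore depended on the probe set, at 0.21 log2 on the brighter one (interval -0.10 to 0.51, limma adjusted p = 0.458).

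**Figure D3:**
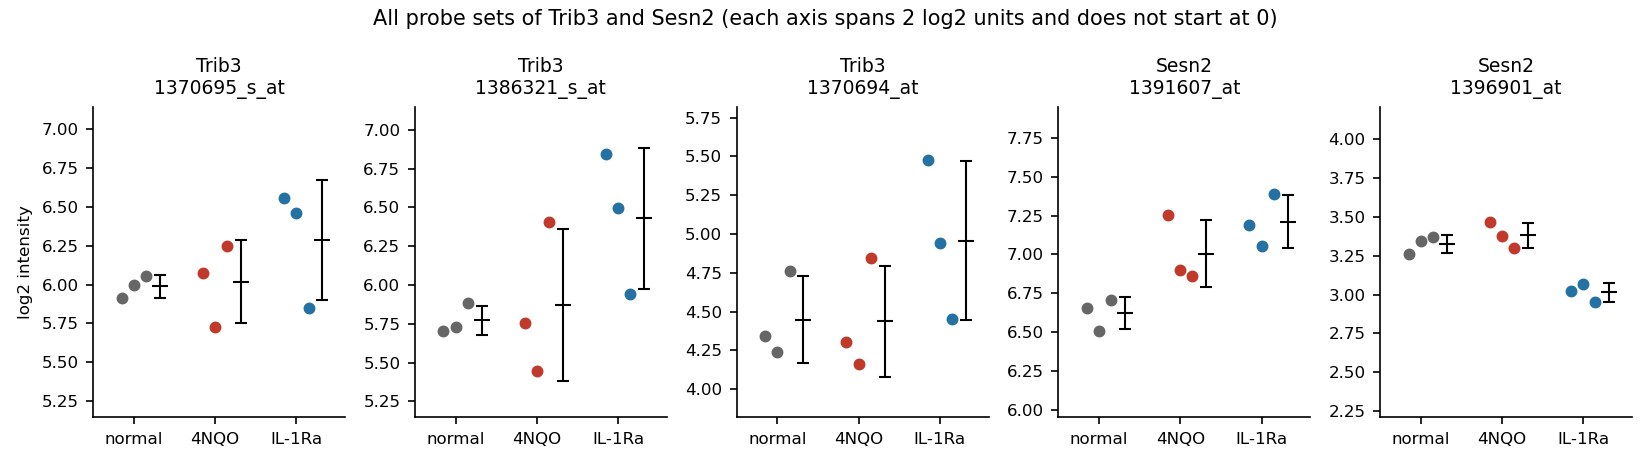
Log2 intensity of the 3 Trib3 and 2 Sesn2 probe sets on each array, by group, with the mean and SD of 3 arrays. IL-1Ra arrays 1 and 2 led all 3 Trib3 probe sets, and the 2 Sesn2 probe sets differed in the direction of the IL-1Ra arrays.

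In all, 3 of 7 genes were called higher and 0 lower between the 4NQO and normal groups, where 12.4% of all genes were called higher and 5.08% lower. That excess of higher calls depended on the scaling of the arrays: over all probe sets there were 2922 higher and 1688 lower calls as deposited, 1463 and 1358 after quantile scaling, 1182 and 1298 after cyclic loess, and 1307 and 5793 after centring on the 75th percentile. The deposited arrays had level medians, but their upper quartiles did not overlap between the normal group (7.04 to 7.08 log2) and the 4NQO group (7.21 to 7.28). After each of these 3 scalings 2 of the 7 genes were called higher, Asns and Psat1. For IL-1Ra against normal, 2 of 7 were called higher and 0 lower, against 1.66% and 0.542% of all genes. Over all probe sets the share of calls that were higher in that comparison went from 71.1% as deposited to 46.3%, 35.1% and 18.8% under the same 3 scalings. For IL-1Ra against 4NQO, 0 of 7 were called by limma, 0 had an unadjusted p under 0.05 on the brightest probe set, and 0 were called by the methods' t-test, where 1.91% of all genes were called higher and 0.753% lower by limma. The median difference of the 7 genes was 0.38, 0.59 and -0.07 log2 in these comparisons, beside 0.08, 0.04 and -0.04 over all genes. Each group enters a pair of these comparisons, so they are not separate evidence. The 7 genes were chosen with earlier results of these data known. Their shares and medians beside those of all genes are therefore a description and not a test.

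**Figure D4:**
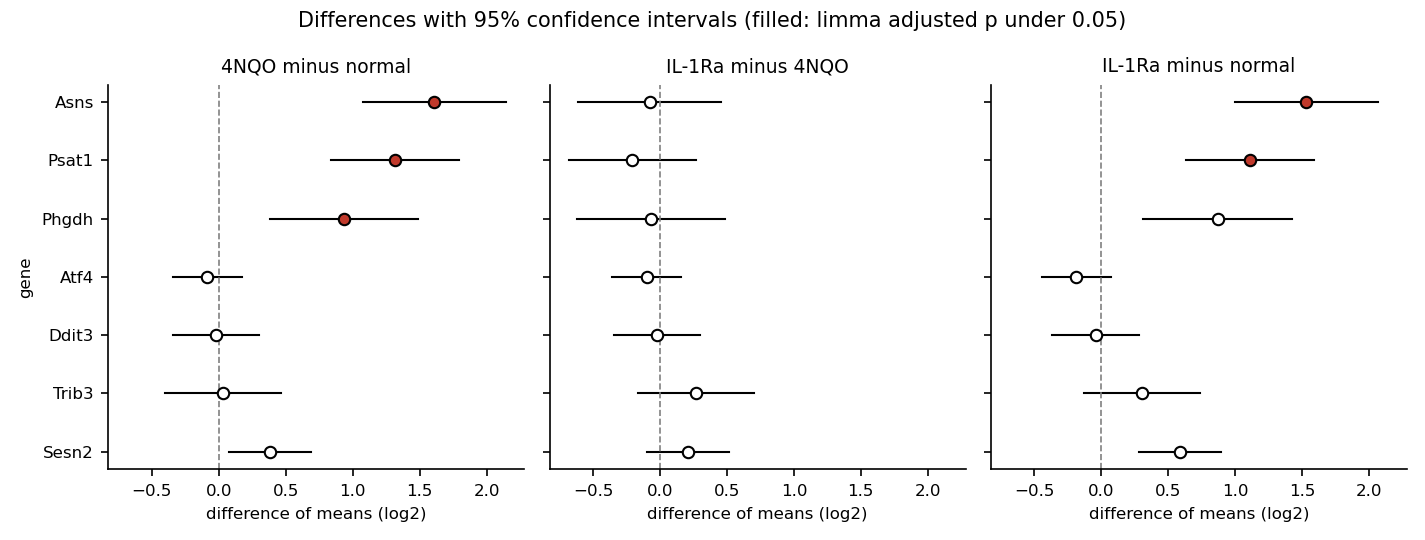
Differences between group means in log2 units for the brightest probe set of each gene, with 95% confidence intervals, in the 3 comparisons, with filled points at a limma adjusted p under 0.05. The intervals of Asns, Psat1, Phgdh and Sesn2 excluded 0 in both comparisons with normal tongue. Asns and Psat1 were called in both, Phgdh in 4NQO against normal alone and Sesn2 in neither. No gene was called between IL-1Ra and 4NQO.

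On the brightest probe sets, the order of the group means set Trib3 beside Sesn2 and apart from Atf4 and Ddit3. Asns, Psat1 and Phgdh were highest in the 4NQO group, next in the IL-1Ra intervention group and lowest in the normal group, with no call between the upper 2 groups. Sesn2 and Trib3 were highest with IL-1Ra and lowest in the normal group. No Trib3 difference was called, and that between 4NQO and normal turned in sign after other scalings. Trib3 probe set 1370694_at was lowest under 4NQO (4.44 log2, against 4.45 in the normal group). Sesn2 probe set 1396901_at was lowest with IL-1Ra (3.01 log2, against 3.33 in the normal group and 3.38 under 4NQO). Atf4 and Ddit3 were highest in the normal group and lowest with IL-1Ra, and no neighbours in that order differed beyond their spread. Array 3 of the 4NQO group was the highest of its group in 4 of the 7 genes, and array 1 of the IL-1Ra intervention group in 4.

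Around these genes, 9 lists of related genes held 148 measured genes of 158. The lists too were chosen with earlier results of these data known, so the shares called are a description and not a test. Between the 4NQO and normal groups 37 of the 148 genes were called higher and 2 lower, or 25% and 1.35%, against 12.4% and 5.08% of all genes. After quantile scaling, cyclic loess and centring on the 75th percentile, 13, 8 and 15 of these genes were called higher and 2, 2 and 6 lower. Of the 27 of these calls singled out by the lowest adjusted p in each list, 11 held after quantile scaling of the arrays and 5 held without each array in turn. The tRNA synthetases, which load amino acids onto tRNA, were higher in 8 of 20 (40%), with a list median of 0.40 log2, and in 6, 4 and 5 after the same 3 scalings. Eprs1, which charges glutamate and proline, rose by 0.89 log2 (limma adjusted p = 0.00431), Yars1 for tyrosine by 0.77 (limma adjusted p = 0.00816) and Mars1 for methionine by 0.67 (limma adjusted p = 0.00909). Eprs1 read 9.0, 9.02 and 8.97 in normal tongues and 9.75, 9.86 and 10.05 under 4NQO, a gap wider than the spread of either group. Its other 3 probe sets gave 0.22, 0.48 and -0.03 log2, and the other probe set of Mars1 gave 0.01.

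Amino acid transporters were called higher in 4 of 11 (36.4%), with the highest list median, 0.60 log2. Slc7a5, which carries leucine and other large neutral amino acids and pairs with Slc3a2, read 6.74, 5.91 and 6.49 log2 in the normal group and 7.06, 7.52 and 8.35 in the 4NQO group (1.26 higher, limma adjusted p = 0.0266). Slc1a4, a carrier of alanine, serine and cysteine, was 1.27 log2 higher (limma adjusted p = 0.0346), Slc1a5, a glutamine carrier, 0.93 (limma adjusted p = 0.0425) and Slc3a2 0.60 (limma adjusted p = 0.0439). None of the 11 was called after quantile scaling or cyclic loess, and 2 were higher and 1 lower after centring. The differences of Slc7a5, Slc1a4 and Slc1a5 after quantile scaling were 1.10, 1.12 and 0.745 log2. Slc7a11, the cystine carrier, had the largest difference of the list at 1.39 log2 but rested on 1 array, at 6.52, 6.23 and 9.64 under 4NQO against 6.29, 5.68 and 6.24 in the normal group (limma adjusted p = 0.218).

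In serine, glycine and one-carbon metabolism 2 of 16 genes were called higher and 1 lower (12.5% and 6.25%), shares near those of all genes. Mthfd1, a folate enzyme, rose by 0.64 log2 (limma adjusted p = 0.00943) and Gcsh, of the glycine cleavage system, by 0.42 (limma adjusted p = 0.0320), while Sds, which degrades serine, fell by 0.86 log2 (limma adjusted p = 0.00835). Sds read 5.92, 6.02 and 5.98 in normal tongues and 5.35, 4.91 and 5.08 under 4NQO. After each of the 3 scalings 1 gene of this list was called higher, Mthfd1, and 1 lower, Sds. Gcsh was called after none of them, and its call was lost on removal of any of 5 arrays. Psph, the last enzyme of serine synthesis after Phgdh and Psat1, differed by 0.40 log2 without a call (limma adjusted p = 0.103), as did the mitochondrial enzymes Shmt2 at 0.54 (limma adjusted p = 0.0550) and Mthfd2 at 0.64 (limma adjusted p = 0.0843). In asparagine, aspartate, glutamine and proline metabolism 2 of 11 were called higher, both of them enzymes that make arginine from citrulline and aspartate, Ass1 by 0.61 (limma adjusted p = 0.0443) and Asl by 0.44 (limma adjusted p = 0.0494). Neither was called after any of the 3 scalings, and the calls were lost on removal of 7 of the 9 arrays for Ass1 and 8 for Asl, each in turn.

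**Figure D5:**
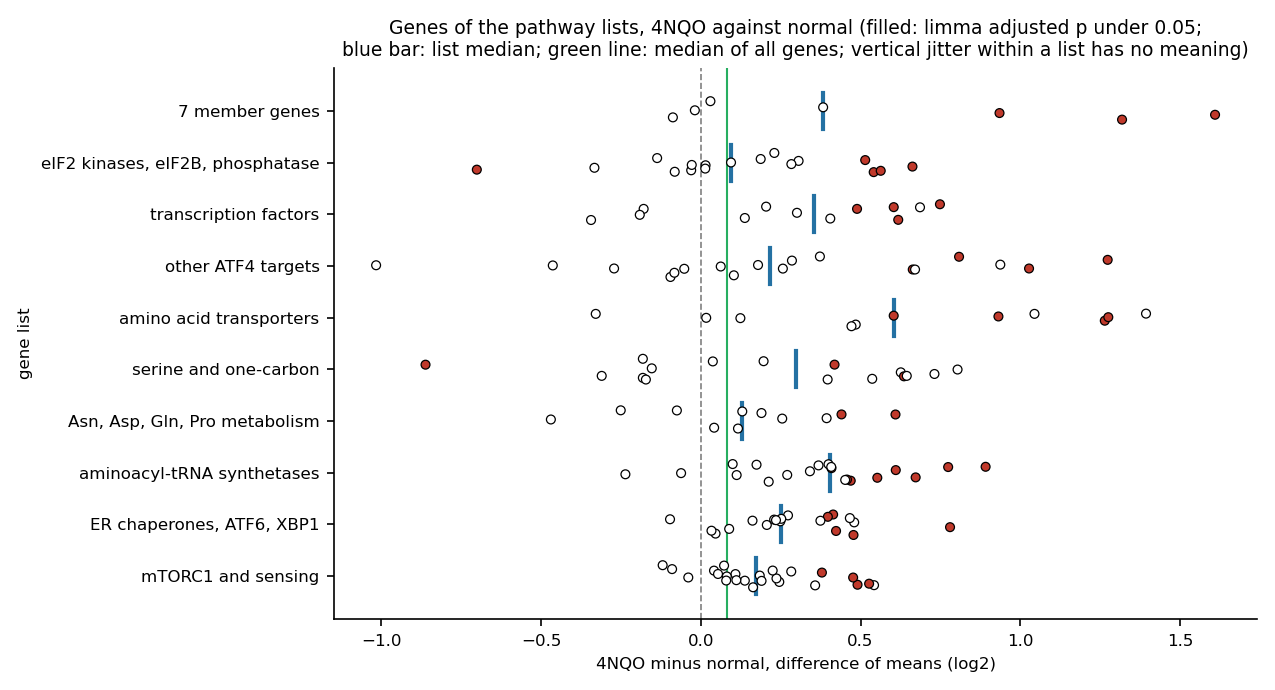
Difference between the 4NQO and normal groups, in log2 units, of each measured gene of the 7 and of the 9 related lists, with filled points at a limma adjusted p under 0.05, a blue bar at each list median and a green line at the median of all genes, 0.08. Transporters and tRNA synthetases had the highest medians among the 9 lists, and filled points to the left of 0 were Ppp1r15a and Sds.

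Other targets of ATF4 did not move as 1 block. Ddit4, an inhibitor of mTORC1, rose by 1.27 log2 (limma adjusted p = 0.0159), Cbs, of the pathway from homocysteine to cysteine, by 1.03 (limma adjusted p = 0.0180), Cth, the next enzyme of that pathway, by 0.81 (limma adjusted p = 0.0375) and Pck2 by 0.66 (limma adjusted p = 0.0117). The other probe set of Pck2 gave -0.30 log2. These 4 of 18 (22.2%) compare with 4, 3 and 3 higher and 0, 0 and 2 lower after the 3 scalings. The remaining 14 were not called, among them Chac1, a glutathione-degrading enzyme, at 9.39, 9.17 and 10.00 in the normal group and 8.86, 7.83 and 8.82 under 4NQO (-1.02 log2, limma adjusted p = 0.0785). Gdf15 and Fgf21, secreted stress signals, stood at -0.08 and -0.46 log2 without a call (limma adjusted p of 0.638 and 0.0822).

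Upstream, 4 of 17 genes of eIF2 control were called higher and 1 lower (23.5% and 5.88%). After quantile scaling and after cyclic loess 0 were higher and 1 lower, and after centring 1 was higher and 1 lower. Eif2ak1, a kinase of eIF2, was higher by 0.51 log2 (limma adjusted p = 0.0184), Eif2b5, a subunit of the exchange factor of eIF2, by 0.66 (limma adjusted p = 0.0194) and Gcn1, which activates the amino acid sensing kinase, by 0.56 (limma adjusted p = 0.0139), though the other probe set of Gcn1 gave -0.40. Ppp1r15a, GADD34, the stress-induced subunit that directs the removal of phosphate from eIF2, was lower, at 8.04, 7.85 and 8.12 in normal tongues and 7.56, 7.30 and 7.04 under 4NQO (-0.70 log2, limma adjusted p = 0.0174). The list median of 0.09 log2 turned to between -0.11 and -0.07 after other scalings. Of 12 transcription factors, 4 were higher (33.3%, against 12.4% of all genes), and 1, 0 and 2 after the 3 scalings. Among the 4 were Nfe2l2, the regulator of oxidative stress genes, at 0.62 (limma adjusted p = 0.0156), Atf5 at 0.75 (limma adjusted p = 0.0295) and Cebpg at 0.49 (limma adjusted p = 0.0296). Atf3, a partner induced by ATF4, differed by -0.18 (limma adjusted p = 0.729).

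Among 19 ER chaperones and genes of the other arms of the unfolded protein response, 5 were called higher under 4NQO (26.3%, against 12.4% of all genes). After the 3 scalings 1, 0 and 1 were called higher. The 5 as deposited were led by Pdia4, a disulfide isomerase, at 0.78 log2 (limma adjusted p = 0.0148), Dnajc3 at 0.48 (limma adjusted p = 0.0232) and Canx, calnexin, at 0.41 (limma adjusted p = 0.0304). Hspa5, the chief ER chaperone, stood at 0.27 log2 without a call (limma adjusted p = 0.288) and Xbp1 at 0.09 (limma adjusted p = 0.689). In the mTORC1 list 4 of 24 were higher (16.7%), a share near the 12.4% of all genes, and 0 were higher after each of the 3 scalings. They included Tsc2, an inhibitor of the complex, at 0.53 (limma adjusted p = 0.0133), Rragc, a GTPase that recruits it when amino acids are present, at 0.49 (limma adjusted p = 0.0192) and Nprl2, an inhibitor of that GTPase, at 0.48 (limma adjusted p = 0.0259). After centring 1 gene of that list was lower. The other probe set of Nprl2 gave -0.06 log2.

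With IL-1Ra the related lists gave 1 call against 4NQO (0.676%, with 1.91% of all genes higher) and 9 against normal (6.08%, with 1.66% of all genes higher), all higher. After quantile scaling, cyclic loess and centring these were 1, 2 and 1 against 4NQO, and 2, 1 and 5 higher against normal, with 1 lower after centring. The former was Sdf2l1, an ER chaperone cofactor, which read 7.29, 7.04 and 7.33 log2 under 4NQO and 8.06, 7.75 and 7.89 with IL-1Ra (0.68 higher, limma adjusted p = 0.0243), against 6.87, 6.85 and 6.67 in normal tongues. The call was lost on removal of any of 4 arrays. Of the 9 against normal, 5 were ER genes, among them Sdf2l1 at 1.10 log2 (limma adjusted p = 0.0196), Pdia4 at 0.98 (limma adjusted p = 0.0362) and Creld2, an ER stress gene, at 0.98 (limma adjusted p = 0.0354). Yars1 and Tars1 were higher by 0.78 and 0.61 (limma adjusted p of 0.0364 and 0.0456), Eif2b2 by 0.56 (limma adjusted p = 0.0463) and Rragc by 0.53 (limma adjusted p = 0.0469). Without any 1 normal array, or any 1 IL-1Ra array, 0 of these 9 calls remained.

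The genes whose profile over the 9 arrays was most like that of a member were sought among 7108 or 7109 genes at or above the median level. For Asns they were Eif4ebp3, a repressor of cap-dependent translation (Pearson r of 0.990), the threonyl-tRNA synthetase Tars1 (0.988) and Ncbp3 (0.985). For Psat1 they were Tyk2 (0.982), M6pr (0.982) and Ahcy (0.978), and for Phgdh Abcc3 (0.989), Wdr3 (0.983) and Cachd1 (0.980). Atf4 was most like Mb, the myoglobin of muscle (0.924), Ddit3 most like Nrp2 (0.903), Sesn2 most like Tmem134 (0.956) and Trib3 most like Psmd8 (0.831). The points of each correlation are the same 9 arrays in 3 groups, and the values are a description with no test.

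Cell type markers and RNA controls also differed between the same groups, though not alike under every scaling or in every control. Beside the marker counts below, 12.4% of all genes were called higher and 5.08% lower between 4NQO and normal. Under 4NQO, 5 of 8 basal keratinocyte markers were called higher, with summed intensities of 14895 to 28025 against 7985 to 13846 in normal tongues, and 15805 to 20199 with IL-1Ra. Endothelial markers were higher in 4 of 7 (1773 to 2324 against 1274 to 1464, and 1296 to 1759 with IL-1Ra). Fibroblast markers were lower in 6 of 8 (4704 to 14174 against 19282 to 22349, and 12995 to 16799 with IL-1Ra), cornified keratinocyte markers in 4 of 14 (27328 to 60527 against 62114 to 69861, and 77830 to 80610 with IL-1Ra) and B and plasma cell markers in 4 of 5 (131 to 214 against 433 to 653, and 552 to 691 with IL-1Ra). The last sum was mostly that of Prdm1, a gene also used in cornifying epithelium, which read 9.15, 8.44 and 8.92 log2 in normal tongues and 7.23, 6.16 and 7.17 under 4NQO, while Cd79b, Ms4a1, Mzb1 and Jchain lay between 3.2 and 5.71 log2 on all arrays. Of 7 T and NK cell markers 1 was lower, and none of the 12 skeletal muscle, 7 macrophage, 5 neutrophil or 6 salivary gland markers passed limma's threshold in that comparison. After quantile scaling, cyclic loess and centring, 4, 3 and 4 basal keratinocyte and 1, 1 and 4 endothelial markers were called higher. Fibroblast markers were then lower in 5, 5 and 6, cornified keratinocyte markers in 2, 2 and 9, and B and plasma cell markers in 3, 2 and 5. T and NK cell markers were lower in 0, 0 and 2, and macrophage markers in 1, 0 and 1. After centring 2 neutrophil and 3 salivary gland markers were also lower. The signal difference between the 3′ and 5′ beta-actin probe sets, which grows as RNA degrades, was 0.802 ± 0.0617 log2 in the normal group, 1.2 ± 0.114 in the 4NQO group and 1.13 ± 0.147 in the IL-1Ra intervention group (SD, n = 3). Both differences from normal gave an exact two-sided permutation p of 0.1, the smallest that 3 arrays against 3 allow. The same measure was 0.268, 0.347 and 0.266 log2 for GAPDH and 1.5, 1.5 and 1.98 for hexokinase, in the order normal, 4NQO and IL-1Ra. For GAPDH the exact permutation p was 0.1 for 4NQO against normal and 0.9 for IL-1Ra against normal. Hexokinase differed by -0.00551 log2 for 4NQO against normal and by 0.481 for IL-1Ra against normal (exact permutation p = 0.1 for the latter). The controls thus did not set the same group apart. Smgc, of the salivary gland list, lay below the lower quartile on every array. The part of tissue make-up and RNA quality in the rise of Asns, Psat1 and Phgdh was not tested.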

How the data were processed

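Total RNA of rat tongue was measured on 9 Affymetrix rat expression arrays. The authors deposited linear intensities, 1 for each probe set on an array. Their processing notes list RMA and Affymetrix Expression Console, without versions. RMA is meant to even out the arrays, which can hide a shift common to most genes, but in the deposited values only the medians were level, and the upper quartiles differed between groups. Here log2 was taken of the deposited intensities, 57 control probe sets were left out, and 31042 of 31099 were tested with no filter. Platform annotation gave 20826 probe sets a single symbol. A gene was represented by its brightest single-symbol probe set.

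Group means were estimated from the 9 arrays together in limma 3.58.1, run under R 4.3.3 (two-sided tests, variances moderated by eBayes, 6 residual and 4.01 prior degrees of freedom), with Benjamini-Hochberg adjustment within each of 3 comparisons. The methods' t-test is the equal-variance test at the folds of 2 or 1.5 that the study gives. The procedure was tested on simulated data. RNA quality was compared with exact permutation tests. The number of arrays limits the precision.

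The members and lists were chosen with earlier results of these data known. Named genes were the 7 members with all their probe sets, up to 3 called genes with the lowest adjusted p per list, comparison and direction, and for each member the 3 genes with the highest correlation. Slc3a2, Slc7a11, Psph, Shmt2, Mthfd2, Cth, Chac1, Gdf15, Fgf21, Atf3, Hspa5 and Xbp1 were named in addition, after their values were seen. Promoter sequences came from RefSeq (GRCr8), and all 7 genes matched. Alternatives were other scalings, an added offset of 16 units, leaving out the 40% dimmest probe sets, other variance models, array weights, the 6 compared arrays alone, the mean over the probe sets of a gene and leaving out each array. Figures were drawn with matplotlib 3.10.9.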

Additional observations from a re-analysis of the deposited data

How the results depend on the processing

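No paired analysis was possible because the sample names of any pair of groups have at most 1 number in common, too few for a block. Between the 4NQO and normal groups the number of the 7 genes called was 3, and ran from 2 to 3 without 1 array and from 0 to 4 under other settings, with 0 by the methods' t-test after Benjamini-Hochberg. Between the IL-1Ra and 4NQO groups it was 0 throughout. Between the IL-1Ra and normal groups it was 2, and became 1 after quantile scaling, after cyclic loess and with the mean of a gene's probe sets, 0 by the methods' t-test after Benjamini-Hochberg, and 4 with array weights, with weights per group, with the 6 compared arrays alone and by the methods' t-test at a fold of 1.5. Without 1 array it ran from 0 to 4, and was 0 without any normal or IL-1Ra array. The cause of these changes was not tested.

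Of the related genes, 39 were called between the 4NQO and normal groups, 15 after quantile scaling, 10 after cyclic loess, 21 after centring on the 75th percentile, 3, 19 and 0 by the methods' t-test at a fold of 2, at a fold of 1.5 and after Benjamini-Hochberg, and 7 to 38 without 1 array, lowest without normal array 3 (12 without normal array 2, 19 without normal array 1). Of 27 named calls there, 11 remained after quantile scaling, 9 after cyclic loess and 5 without each array in turn. Between the IL-1Ra and 4NQO groups the count was 1, then 2 after cyclic loess and with dim probe sets left out, 4 with 16 units added and by the methods' t-test at a fold of 1.5, 0 with weights per group, with the 6 arrays alone and by the methods' t-test otherwise, and 0 to 13 without 1 array, highest without 4NQO array 3. Between the IL-1Ra and normal groups it was 9, then 2 after quantile scaling, 1 after cyclic loess, 18 with 16 units added, 40 with array weights, 35 with weights per group, 34 with the 6 arrays alone, 4, 16 and 1 by the methods' t-test at a fold of 2, at 1.5 and after Benjamini-Hochberg, and 0 to 28 without 1 array, highest without 4NQO array 3. Centring on the 75th percentile moved the median difference of all probe sets between 4NQO and normal by -0.19 log2, from 0.01 to -0.18, and that between IL-1Ra and normal by -0.15. For IL-1Ra against 4NQO the share of calls that were higher was 68.6% as deposited, 76.1% after quantile scaling, 79.9% after cyclic loess and 82.1% after centring.

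Signs turned only for differences that were not called. Trib3 between 4NQO and normal became -0.0962 log2 after quantile scaling, -0.0986 after cyclic loess and -0.161 after centring, and ran from -0.0862 to 0.175 without 1 array. Ddit3 between IL-1Ra and 4NQO became 0.0213, 0.0589 and 0.0132 under the same scalings and 0.0399 with array weights, and ran from -0.188 to 0.0785 without 1 array. Ddit3 ran from -0.0931 to 0.0245 between 4NQO and normal and from -0.207 to 0.0598 between IL-1Ra and normal without 1 array. Phgdh between IL-1Ra and 4NQO became 0.0053 after cyclic loess and 0.0962 with array weights. Sesn2 between them became -0.0796 with the mean of its probe sets. Without 4NQO array 3, Asns, Psat1 and Phgdh were 0.152, 0.0479 and 0.247 log2 higher with IL-1Ra than with 4NQO, and without 1 array in turn they ran from -0.299 to 0.152, -0.351 to 0.0479 and -0.289 to 0.247. With 3 arrays a group, changes as small as those of Atf4 and Ddit3 were not detectable.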
